A study of Mus musculus with 6 samples.

Results

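Scar cells are described here from 2 libraries of fluorescently sorted mouse cells, 1 from a heart infarct and 1 from a brain infarct, and compared between the organs. They were chosen by their own transcripts. Only cells with 500 or more genes and with no more than 10% of UMIs (unique molecules counted) from mitochondrial genes were considered. Type I and III collagen transcripts (Col1a1, Col1a2 and Col3a1) had to make up at least 1% of its UMIs, with at least 1 UMI of Cthrc1 or Postn and no UMI of Cdh5, Ptprc or Kcnj8, genes of endothelial cells, leukocytes and pericytes. This rule selected 5232 cells of the 44766 barcodes of the series, 5074 from heart infarct and 158 from brain infarct. They were 58.4% of the 8681 heart infarct cells that passed the quality filters (exact Clopper-Pearson 95% interval 57.4% to 59.5%) and 7.63% of the 2071 in brain infarct (6.52% to 8.86%).

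After an infarct, fibroblasts and related mesenchymal cells of the heart secrete fibrillar collagen, fibronectin and crosslinking enzymes that turn dead muscle into a scar. In the brain, the same work falls to fibroblasts of the meninges and vessel walls and to perivascular stromal cells, which lay down a fibrotic core inside the border of reactive astrocytes. Cthrc1, a secreted protein with a collagen triple helix repeat, and Postn (periostin), a matricellular protein that binds collagen, are widely used as marks of activated, matrix-producing fibroblasts in the heart.

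All libraries came from Tbx18CreER/+;Rosa26tdT/+ mice, in which tamoxifen, given for 4 days, makes cells that express the T-box factor Tbx18 and their descendants carry the red protein tdTomato. Cells were sorted for it, so both sets of scar cells come out of that gate. The heart infarct library was the infarcted area of the left ventricle after LAD ligation (closure of the left anterior descending coronary artery), and the brain infarct library was the necrotic core after PT stroke (photothrombosis, clotting of cortical vessels by light). The other libraries were heart sham, heart peri-infarct, brain sham and brain peri-infarct, 1 library for each of the 6 groups. The labels used here give no age, no time after injury and no number of animals, and the organs were dissociated with different enzymes. With 1 library in each group no difference below has a replicate check or a test, and organ, surgery, dissociation and library cannot be told apart. Intervals are exact 95% intervals and cover counting error only.

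The brain scar cells were sequenced more deeply, with a median of 33773 UMIs per cell against 12674.5 in heart, but they are far fewer. Their UMIs summed to 5338293, against 71786760 in heart. Levels are given in CPM (a gene's UMIs in the summed cells, scaled to a common total), which in 3' libraries count molecules and need no gene length. The level of 3 counts is 0.562 CPM in brain and 0.0418 CPM in heart. For a gene with 0 brain UMIs the exact interval reaches 0.691 CPM. The libraries shared 92 barcodes, and no barcode was shared between the 2 sets of scar cells. A barcode that also occurred in some other library was carried by 61 heart and 3 brain scar cells. Without those cells 465 genes were at least 2-fold higher in heart and 359 in brain, against 466 and 363 with them. The sexes differed. Of the heart scar cells, 5026 had a Xist UMI and no Y-linked UMI and 0 had the reverse, while the brain set held 121 and 31 such cells, so the brain set came from more than 1 animal.

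Marker genes of other cell types were low in both sets, apart from contractile genes shared with smooth muscle. The 7 macrophage markers summed to 12.3 CPM in heart and 17.0 CPM in brain scar cells, against 783 and 735 CPM in the other cells of the same libraries. The 6 endothelial markers summed to 34.5 and 31.1 CPM, the 6 pericyte markers to 79.2 and 86.0 CPM, and the 7 cardiomyocyte markers to 17.3 and 1.69 CPM. Of the endothelial sums, Tek gave 24.3 CPM in heart and Emcn 28.7 CPM in brain. The macrophage, endothelial and pericyte lists include Ptprc, Cdh5 and Kcnj8, which the rule itself set to 0 in scar cells. Cells with a UMI of those genes were left among the other cells. The low sums of these lists are thus partly fixed by the rule. Neuron markers summed to under 1 CPM in each. The 5 smooth muscle markers summed to 1585 CPM in heart and 1837 CPM in brain, led by Tagln and Acta2, which activated fibroblasts also express. Myh11, the myosin of mature smooth muscle, stood at 19.1 CPM and 0. Mesothelial markers summed to 78.3 and 8.43 CPM, and arachnoid markers to 2.97 and 92.0 CPM, of which Cldn11 gave 69.1 CPM in brain. The 3 markers that go with the name, Col1a1, Cthrc1 and Postn, are themselves genes of the rule and cannot check it. Of these, Postn stood at 3164 CPM in heart and at only 51.7 CPM in brain. The brain cells entered through Cthrc1, which had a UMI in 100% of them, against 55.1% for Postn. In heart the shares were 88.5% for Cthrc1 and 98.1% for Postn.

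Cthrc1 did not mark matrix-producing cells alike in the 2 organs. In cells with a Kcnj8 UMI and collagens under 1% of UMIs, a pericyte gate, Cthrc1 stood at 1061 CPM in brain infarct and at 803 CPM in brain sham. In the same gate it stood at 29.5 CPM in heart infarct and 5.49 CPM in heart sham. The level in brain scar cells, 1461 CPM, was 1.24-fold that of heart scar cells (1182 CPM), against 1061 CPM in the brain cells of the pericyte gate. Col1a1, by contrast, was at 33.8 CPM in the brain pericyte gate against 9401 CPM in brain scar cells.

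The exclusion step cut the 2 organs unequally. In heart it removed 373 of 5447 collagen-rich cells with Cthrc1 or Postn, or 6.85%, of which 319 had a Kcnj8 UMI and 36 a Cdh5 UMI. In brain it removed 858 of 1016, or 84.4%, of which 850 had a Cdh5 UMI, 37 a Kcnj8 UMI and 0 a Ptprc UMI. Cdh5 encodes VE-cadherin, the junction protein of endothelium. The removed brain cells carried a median of 3 Cdh5 UMIs at a median depth of 37031 UMIs, or 84.5 CPM in the sum, against 506 CPM in 86 endothelial cells of that library (UMIs of both Cdh5 and Pecam1, collagens under 1%). Of the other endothelial markers, Emcn stood at 24.8 CPM in them and 28.7 CPM in the scar cells, against 417 CPM in endothelial cells. The rest were nearly missing from the removed cells, with Kdr at 0.99 CPM and Tek at 0.45 CPM. Pecam1 stood at 0.27 CPM and had a UMI in 7 of the 858 cells, and Cldn5 stood at 1.2 CPM, against 459 and 4506 CPM in the endothelial cells. The number of brain cells kept depended on depth. When cells were thinned to 5000 UMIs before the rule was applied, 682 brain and 4938 heart cells met it. At 2000 UMIs these were 810 and 4874, against 158 and 5074 at full depth.

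Apart from Cdh5, the brain cells that were kept and those that were removed were nearly the same. Of 2682 genes whose mean over both sums reached 50 CPM, 3 were at least 2-fold higher in the scar cells (0.112%) and 2 were lower (0.0746%). Higher were 1500015O10Rik, Col14a1 at 101 against 43.6 CPM, and Sfrp4 at 476 against 226 CPM. Lower were Vtn (vitronectin) at 34.5 against 79.3 CPM and Apod (apolipoprotein D) at 70.2 against 227 CPM. These 5 genes are named because they are all that passed. In heart, kept and removed cells differed in more genes: of 2978 genes, 5 were higher in the kept cells (0.168%) and 54 were lower (1.81%). Among the lower ones the pericyte genes Rgs5 stood at 55.7 against 1425 CPM and Abcc9 at 2.54 against 131 CPM. The removed heart cells were mostly picked by a UMI of Kcnj8, itself a pericyte gene, and still held Col1a1 at 5779 CPM and Dcn at 5370 CPM. Whether they are another kind of cell was not tested. The 158 brain scar cells are those of 1016 collagen-rich cells in which no Cdh5, Ptprc or Kcnj8 UMI was counted. With Cdh5 allowed, an alternative added after the data were seen, 979 brain cells entered, and 479 genes were at least 2-fold higher in heart and 388 in brain.

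**Figure D1:**
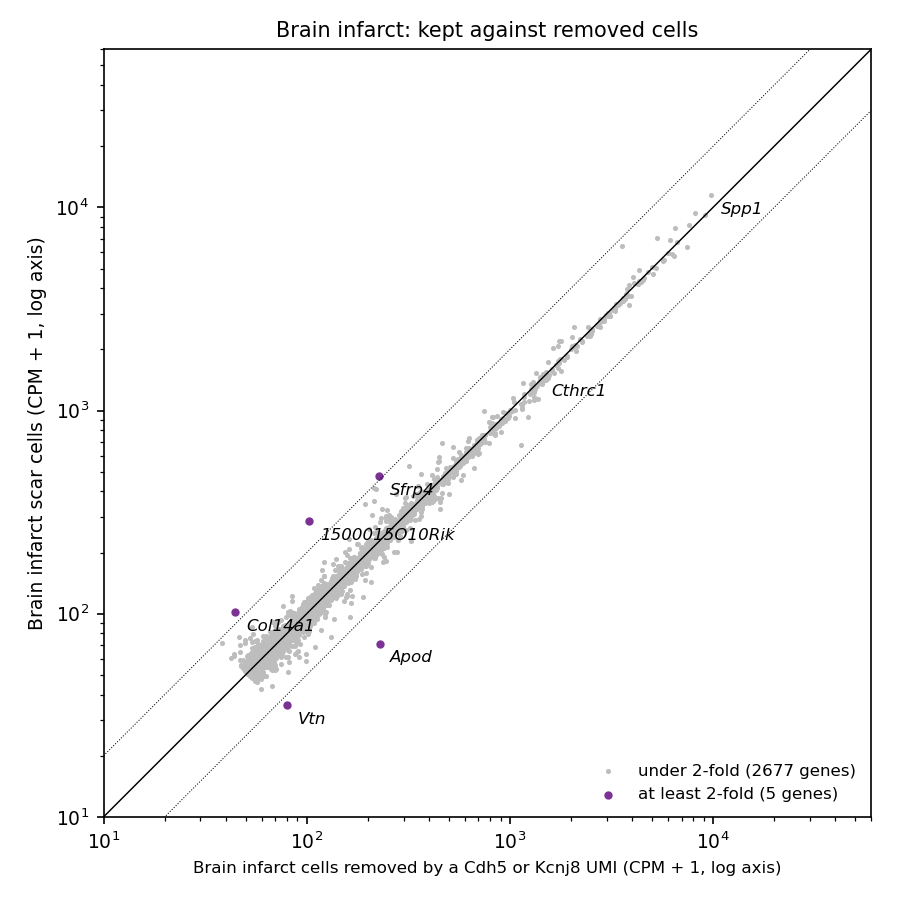
Each point is 1 gene of brain infarct, with its level in the 858 removed cells on the horizontal axis and in the 158 scar cells on the vertical axis, both as CPM + 1 on log axes. The solid line marks equal levels and the dotted lines 2-fold differences. The grey genes lie within 2-fold, and the 5 purple genes outside it.

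The collagen threshold cut through a continuum. The lowest collagen share inside the rule was 1.001% in heart and 1.023% in brain, and the highest share just outside it was 0.998% and 0.994%. The median share inside was 2.57% and 2.37%. Col1a1, the alpha-1 chain of type I collagen, stood at 7190 CPM in heart and 9401 CPM in brain, and Col1a2, its partner chain, at 8389 and 7916 CPM. Col3a1, the chain of type III collagen, stood at 12171 and 7067 CPM. The ratio of Col3a1 to Col1a1 was therefore above 1 in heart and below 1 in brain. All 3 are levels the rule used and serve as description.

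Between the organs, 2842 genes were tested, those whose mean of both levels reached 50 CPM. Of these, 466 (16.4%) were at least 2-fold higher in heart scar cells and 363 (12.8%) at least 2-fold higher in brain scar cells, on the ratio of CPM + 1. The other 70.8% lay within 2-fold, and the median log2 ratio of heart over brain was -0.14. These shares are the background for every list of genes below, and a share near them says nothing of the list. The minimum was met through 1 organ alone, with under 50 CPM in the other, by 410 genes in heart and 282 in brain. A gene that met it so had to stand well apart, so list counts are descriptions. Counts depended on the CPM minimum: at 200 CPM they were 108 and 138, so that among abundant transcripts the brain list was the longer one. Against the brain cells with Xist, 454 of the 466 heart genes and 354 of the 363 brain genes stayed at least 2-fold apart. Against the 31 brain cells with Y-linked UMIs, 421 and 319 did.

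**Figure D2:**
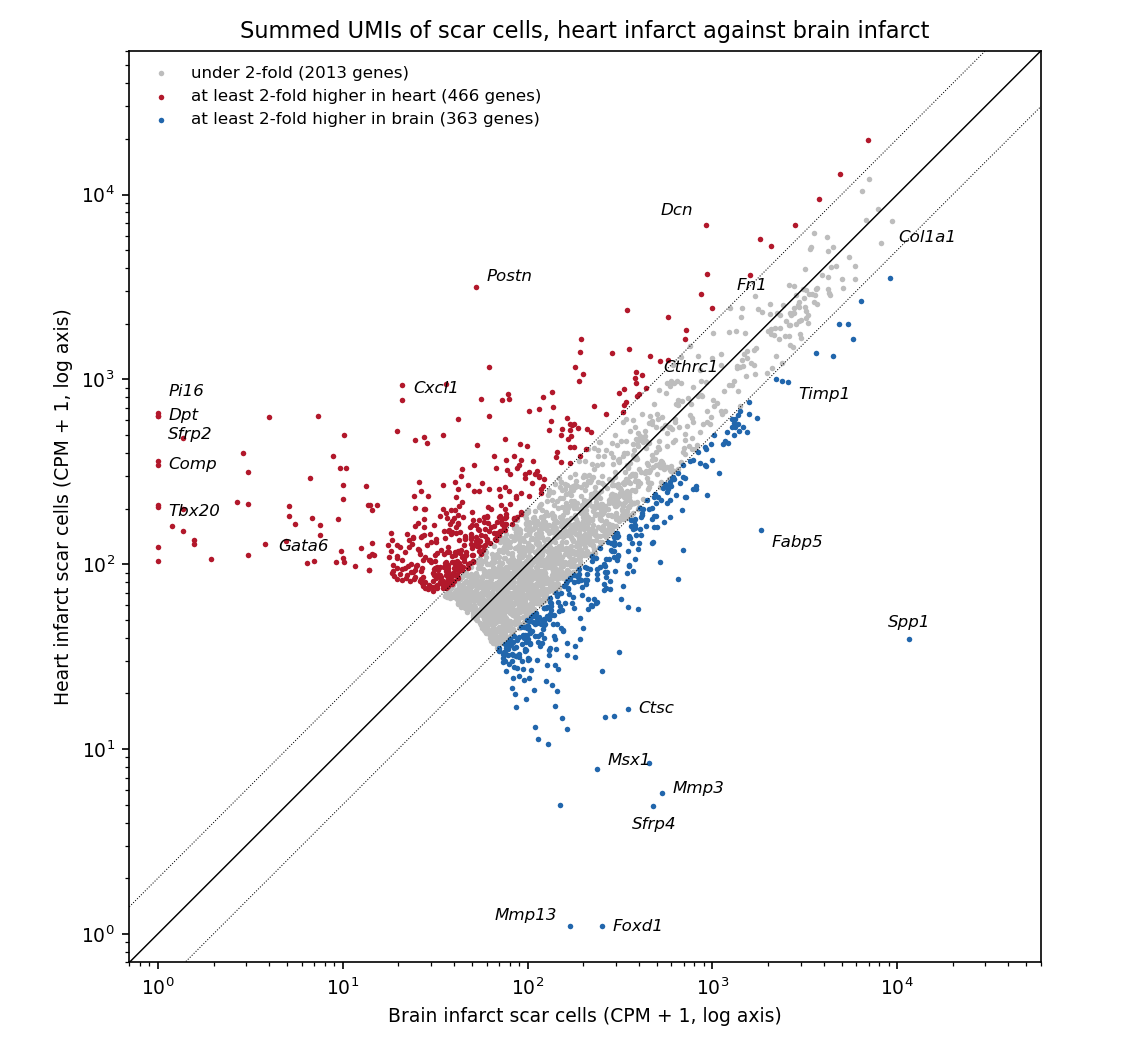
Each point is 1 of the 2842 tested genes, placed by its CPM + 1 in the summed scar cells of brain infarct (horizontal) and heart infarct (vertical), both on log axes. Red genes are at least 2-fold higher in heart and blue genes in brain, the solid line marks equal levels and the dotted lines 2-fold. Genes with 0 brain UMIs, among them Pi16 and Tbx20, stand at the left edge, and Spp1 stands apart at the right.

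Much of the bulk of the transcriptome was shared. At 1000 CPM or more in both organs and less than 2-fold apart stood 101 genes, of which 67 were ribosomal or mitochondrial. Mgp, the matrix Gla protein that inhibits calcification, was among the most abundant, at 10395 CPM in heart and 6478 CPM in brain. Fn1 (fibronectin), the provisional matrix on which collagen assembles, stood at 2552 and 2039 CPM, with a per-cell median of 1992 and 1903 CPM. Serpinh1, the collagen chaperone HSP47, stood at 1980 and 2583 CPM, and the intermediate filament vimentin (Vim) at 3559 and 4217 CPM. Lgals1 (galectin-1) stood at 3138 and 5066 CPM, S100a6 at 2233 and 3302 CPM and Tmsb4x (thymosin beta-4, which binds actin monomers) at 5483 and 8170 CPM. The AP-1 gene Fos, which dissociation itself can induce, was at 1885 and 2189 CPM.

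Few genes set scar cells apart from the rest of their library in both organs. In heart, 22 of 2919 genes (0.754%) were at least 4-fold above all other cells that passed the filters, 21 of them outside the rule genes. In brain it was 0 of 2679 (0%), where the other cells include the 858 removed ones. Against cells with collagens under 1% of UMIs, an alternative added after the data were seen, 56 of the 2919 heart genes (1.92%) and 8 of the 2679 brain genes (0.299%) passed. Outside the rule genes these were 51 and 5, and 3 were on both lists, which is 5.88% of the heart list and 60.0% of the brain list. They were Eln, Mfap4 and Col14a1. Eln (elastin) stood at 2420 CPM in heart scar cells against 250 CPM in the low-collagen cells, and at 993 against 76.7 CPM in brain. Mfap4, a microfibril-associated glycoprotein, stood at 1656 against 172 CPM and at 193 against 45.9 CPM. Col14a1, which coats collagen fibrils, stood at 674 against 161 CPM and at 101 against 24.3 CPM. All 3 were higher in heart than in brain scar cells, by 2.44-fold, 8.57-fold and 6.68-fold, but Eln fell below 2-fold with the heart peri-infarct library in place of heart infarct.

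The genes furthest toward heart had no transcript at all in the brain scar cells. Pi16, a peptidase inhibitor of perivascular and reservoir fibroblasts, had 47094 UMIs in heart (656 CPM, 650 to 662) and 0 in brain. By the exact counting interval it was at least 949-fold higher in heart. Dpt (dermatopontin), a small matrix protein that binds decorin, stood at 634 CPM and 0, at least 917-fold. Sfrp2, a secreted modulator of Wnt signalling, stood at 630 CPM and 0, at least 911-fold.

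Comp and Cilp, cartilage matrix proteins that also appear in late heart scar, were at 360 and 341 CPM in heart and at 0 in brain. By the same interval they were at least 522-fold and 494-fold higher in heart. Pcolce2, an enhancer of procollagen cleavage, was at 207 CPM and 0. In all, 9 of the 466 heart genes had 0 brain UMIs, and none of the 363 brain genes had 0 heart UMIs, but the heart sum is far larger and shows lower levels than the brain sum can. After each cell was thinned to 5000 UMIs, which left 4932 heart and 154 brain scar cells, 66.2% of heart scar cells had a Pi16 UMI (64.8% to 67.5%). In brain it was 0 of 154, which allows a share of up to 2.37%. In Ptprc-UMI cells of the heart library with collagens under 1%, a measure of free RNA, the Pi16 share was 7% at a median depth of 8578.5 UMIs before thinning.

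Those heart genes were spread unevenly over the heart scar cells. Comp had a per-cell median of 55.3 CPM and a thinned share of 42.8%, and Sfrp2 a median of 176 CPM and a share of 54.8%. A UMI of Comp, Cilp or Thbs4 was found in 66.7% of thinned heart cells (65.3% to 68.0%) and in 0 of 154 brain cells. Wisp2, a member of the CCN family of matricellular proteins, stood at 626 CPM in heart and 3.00 CPM in brain. Cd34, a surface glycoprotein of resident fibroblasts, stood at 400 and 1.87 CPM. C3, the central complement protein, stood at 481 CPM (34494 UMIs) and 0.37 CPM (2 UMIs), a ratio of 1283 with a counting interval of 355 to 10591. Of 21 genes listed for resident and specialised heart fibroblasts 16 were tested, 12 of them only through heart and 1 only through brain, so that these had to differ. The only one higher in brain was Prg4 (lubricin), at 38.2 CPM in heart and 192 CPM in brain, named here only as the exception.

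At the other end stood Spp1 (osteopontin), a secreted phosphoprotein that binds integrins and is made by macrophages and injured stroma. It had 61491 UMIs in the 158 brain scar cells, 11519 CPM (11428 to 11610), against 38.1 CPM in heart, a 302-fold difference with a counting interval of 291 to 314. In the brain sum it was the most abundant transcript among those named here, above Col1a1, but its summed level exceeded the upper quartile of single cells. The level varied widely from cell to cell, with quartiles of 1362 and 9335 CPM around a median of 3523 CPM, and 98.1% of thinned brain cells had a UMI against 6.35% in heart. Cells with Xist stood at 12484 CPM and cells with Y-linked UMIs at 7719 CPM. Leukocytes of the brain library (Ptprc UMI, collagens under 1%, 110 cells) held more, 34317 CPM. Lyz2, a lysozyme gene as abundant as Spp1 in those leukocytes at 32440 CPM, stood at 7.12 CPM in the brain scar cells, and C1qa, at 5206 CPM in the leukocytes, stood at 6.18 CPM.

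Other brain-high genes were enzymes and secreted proteins. Mmp3 (stromelysin-1) stood at 531 CPM (512 to 551) in brain and 4.79 CPM in heart, 111-fold, and Mmp13 (collagenase-3) at 168 and 0.10 CPM, the latter from 7 UMIs, so that the ratio of 1725 has an interval of 834 to 4303. Both were patchy: 44.2% and 27.9% of thinned brain cells had a UMI, with 0% of brain leukocytes for each. They also differed between cells of the 2 sexes in the brain set, which come from different animals, Mmp3 at 604 CPM in Xist cells against 257 CPM in Y-linked cells and Mmp13 at 204 against 28.3 CPM. Both genes lie in a cluster of matrix metalloproteinase genes on chromosome 9 (mm10), Mmp13 at chr9:7272514-7283331 and Mmp3 at chr9:7445822-7455975, with starts 173308 bases apart. Of the other 7 genes of the cluster that were looked up, Mmp12 had 31 UMIs in brain and 0 in heart, Mmp10 had 23 and 5 and Mmp27 had 12 and 26. Mmp8 had 1 UMI in brain and 19 in heart, and Mmp1b, Mmp20 and Mmp7 had none in either, so Mmp3 and Mmp13 were the members with a level above 10 CPM.

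The stretches upstream of the starts of Mmp13, Mmp3 and Spp1 are shown because these were 3 of the 5 genes furthest toward brain. Mmp13 and Mmp3 also lie in the same gene cluster, with Mmp12 and Mmp1b between them, and were high in the same cells' sum. They are RefSeq promoter sequences of build GRCm38.p6, plus strand, 5′ to 3′, chr9:7272264-7272513, chr9:7445572-7445821 and chr5:104434861-104435110, each 250 bases that end before the annotated start. Capitals mark matches on either strand to TATAAA (an element of core promoters), TGANTCA (a site of AP-1 factors) and CCAAT (a box of proximal promoters), motifs that do not overlap here. The genes and motifs were chosen after the values were seen.
Mmp13: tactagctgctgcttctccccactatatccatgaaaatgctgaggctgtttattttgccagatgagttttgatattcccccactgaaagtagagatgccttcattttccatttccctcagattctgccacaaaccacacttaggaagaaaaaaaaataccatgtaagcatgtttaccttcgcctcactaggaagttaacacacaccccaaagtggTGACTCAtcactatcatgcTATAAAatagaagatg
Mmp3: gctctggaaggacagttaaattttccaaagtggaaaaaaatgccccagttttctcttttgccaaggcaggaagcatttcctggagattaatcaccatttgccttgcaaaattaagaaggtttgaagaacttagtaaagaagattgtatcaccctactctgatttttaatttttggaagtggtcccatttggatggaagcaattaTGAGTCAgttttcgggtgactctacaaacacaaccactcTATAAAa
Spp1: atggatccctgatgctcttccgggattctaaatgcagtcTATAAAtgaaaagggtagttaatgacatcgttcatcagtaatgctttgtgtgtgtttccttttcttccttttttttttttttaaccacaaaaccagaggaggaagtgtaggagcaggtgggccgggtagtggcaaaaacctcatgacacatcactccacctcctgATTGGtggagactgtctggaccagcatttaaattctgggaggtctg

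The upstream stretches of Mmp13 and Mmp3 hold 1 AP-1 match each, starting 35 and 46 bases before the end of the stretch, and 1 TATAAA match each, starting 16 and 7 bases before it. The Spp1 stretch holds 1 CCAAT match on the opposite strand and 1 TATAAA match 211 bases before its end. Over 27025 genes of the RefSeq table, 6.87% of such 250-base stretches hold TGANTCA, 13.0% TATAAA and 34.5% CCAAT. Among the genes at least 2-fold higher in brain, 285 had an entry and 5.61% held TGANTCA, against 4.66% of 343 heart-high genes and 4.08% of 2233 tested genes. A match is a description of letters and shows neither binding nor use. Cthrc1 is named without a sequence.

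Transcription factors known from each organ are given next as levels. Of 17 factors listed for heart mesenchyme 5 were tested, each of which reached the minimum only through heart, so they had to be higher there. Tbx20, a T-box factor of the developing and adult heart, stood at 202 CPM and 0, at least 292-fold by the exact counting interval. Meox1, a homeobox factor of activated heart fibroblasts, stood at 216 and 1.69 CPM, and the zinc finger factor Gata6 at 163 and 4.50 CPM. Sox9, a factor of cartilage and valve mesenchyme, stood at 143 and 26.6 CPM and Mef2c at 88.5 and 29.8 CPM. Below the 50 CPM minimum, Tcf21, which marks epicardium-derived fibroblasts, stood at 92.3 CPM and 0, and Gata4 at 28.4 CPM and 0.

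Of 22 factors listed for meningeal and neural crest mesenchyme 6 were tested, 3 of them only through brain. Foxd1, a forkhead factor of meningeal and stromal progenitors, stood at 252 CPM (239 to 266) in brain and 0.10 CPM (7 UMIs) in heart. It had a UMI in 59.7% of thinned brain cells, against 0.041% in heart and 0.943% in brain leukocytes. Msx1, a homeobox factor of neural crest, stood at 238 and 6.78 CPM, Foxc1, which the meninges need to form, at 126 and 22.3 CPM, and Twist1 at 167 and 67.8 CPM. The other tested pair, Foxp1 and Foxp2, lay within 2-fold, at 212 and 219 CPM and at 55.4 and 84.4 CPM in brain and heart. The gate gene Tbx18 itself was low in both, at 23.2 CPM in heart and 37.3 CPM in brain, with a UMI in 9.83% and 18.8% of thinned cells.

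Of 14 tested factors listed as common to mesenchyme of both organs, 7 were higher in heart (background 16.4%). Of the 14, 3 were tested only through heart and 2 only through brain. The 2 higher in brain are near the background of 12.8%. Ebf1 stood at 208 CPM in heart and 13.1 CPM in brain, Nfib at 330 and 66.5 CPM and Zeb2 at 180 and 43.8 CPM, while the homeobox gene Prrx2 stood at 64.1 and 321 CPM.

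Among collagens of the fibril core, 8 were tested, 3 of which the rule itself used. Of the other 5, 2 were higher in heart (Col5a1, 752 and 341 CPM, and Col5a2, 1644 and 708 CPM) and 0 in brain, with a median log2 ratio of 0.24, against 16.4%, 12.8% and -0.14 over all tested genes. With the heart peri-infarct library in place of heart infarct, Col5a2 fell below 2-fold. Type V chains start fibrils and limit their width. Col11a1, a related chain of cartilage, stood at 192 and 162 CPM. Of 8 tested fibril-associated and network collagens, 4 lay within 2-fold, 3 were higher in heart (background 16.4%) and 1 in brain (near the background of 12.8%). Of the 8, 1 was tested only through heart. Col12a1 was higher in brain, at 690 against 118 CPM, while Col14a1, Col8a1 (1096 against 385 CPM) and Col8a2 (96.5 against 10.7 CPM) were higher in heart.

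Of 11 tested basement membrane genes 7 were at least 2-fold higher in heart (background 16.4%) and 1 in brain (12.8%), with a median log2 ratio of 1.34. Among the 11, 3 were tested only through heart and 1 only through brain. Col15a1 stood at 606 CPM in heart and 41.2 CPM in brain, the laminin chain Lama2 at 175 and 26.4 CPM and perlecan (Hspg2) at 367 and 75.7 CPM. Col18a1, the collagen that carries endostatin, was the exception at 30.5 CPM in heart and 179 CPM in brain.

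Proteoglycans, the sugar-bearing proteins that space collagen fibrils, were higher in heart for 9 of 11 tested genes (background 16.4%) and in brain for 0 (12.8%), with a median log2 ratio of 1.95. Of the 11, 5 were tested only through heart. Dcn (decorin) stood at 6838 CPM in heart and 928 CPM in brain, 7.37-fold, and was found in 99.8% and 90.9% of thinned cells. Lum (lumican) stood at 1450 and 354 CPM, Ogn (osteoglycin) at 940 and 35.4 CPM, Aspn (asporin) at 936 and 19.9 CPM and Prelp at 206 and 4.12 CPM.

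Matricellular and adhesive glycoproteins included both extremes. Of 25 tested, 2 are genes of the rule, Postn and Cthrc1. Of the other 23, 14 were higher in heart (background 16.4%) and 2 in brain (12.8%), Spp1 and Tgfbi, the latter named after its values were seen (58.8 CPM in heart and 220 CPM in brain). The median log2 ratio of the 23 was 1.39. Of the 25, 7 were tested only through heart and 1 only through brain. Postn, which the rule used, stood at 3164 and 51.7 CPM, 61.2-fold, with per-cell medians of 2555 and 23.1 CPM. Its thinned share was 94.1% in heart (19.5% in heart leukocytes) and 19.5% in brain (0% in brain leukocytes). Thbs4 stood at 150 and 0.37 CPM and Fbln5 (fibulin-5), which assembles elastic fibres, at 471 and 23.6 CPM.

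Of 22 tested enzymes that fold, cleave and crosslink collagen, 16 lay within 2-fold, a share near the 70.8% of all tested genes, with 6 higher in heart (background 16.4%) and 0 in brain (12.8%). The median log2 ratio was 0.56, and 2 of the 22 were tested only through heart. Adamts2, the procollagen N-proteinase, stood at 633 and 60.7 CPM, Loxl1, an elastin crosslinker, at 976 and 188 CPM, Loxl2 at 290 and 95.9 CPM, and Lox at 846 and 312 CPM. Lox fell below 2-fold with the heart peri-infarct library in place of heart infarct. Of 20 tested matrix proteases and inhibitors, 7 were higher in heart (background 16.4%) and 5 in brain (12.8%), with a median of 0.27, and 3 were tested only through brain. Mmp2 (gelatinase A) stood at 472 CPM in heart and 74.9 CPM in brain, opposite to Mmp3 and Mmp13. Of 13 tested cathepsin and lysosome genes, 9 lay within 2-fold, near the 70.8% of all tested genes. Of the rest 3 were higher in brain (background 12.8%), cathepsins C, H and K, and 1 in heart (16.4%), Ctsd, at 563 against 174 CPM. Of the 13, 1 was tested only through brain. Ctsc stood at 15.5 CPM in heart and 350 CPM in brain, Ctsh at 64.0 and 212 CPM and Ctsk, a collagen-degrading protease, at 76.7 and 207 CPM. Brain leukocytes held Ctsc at 552 CPM.

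**Figure D3:**
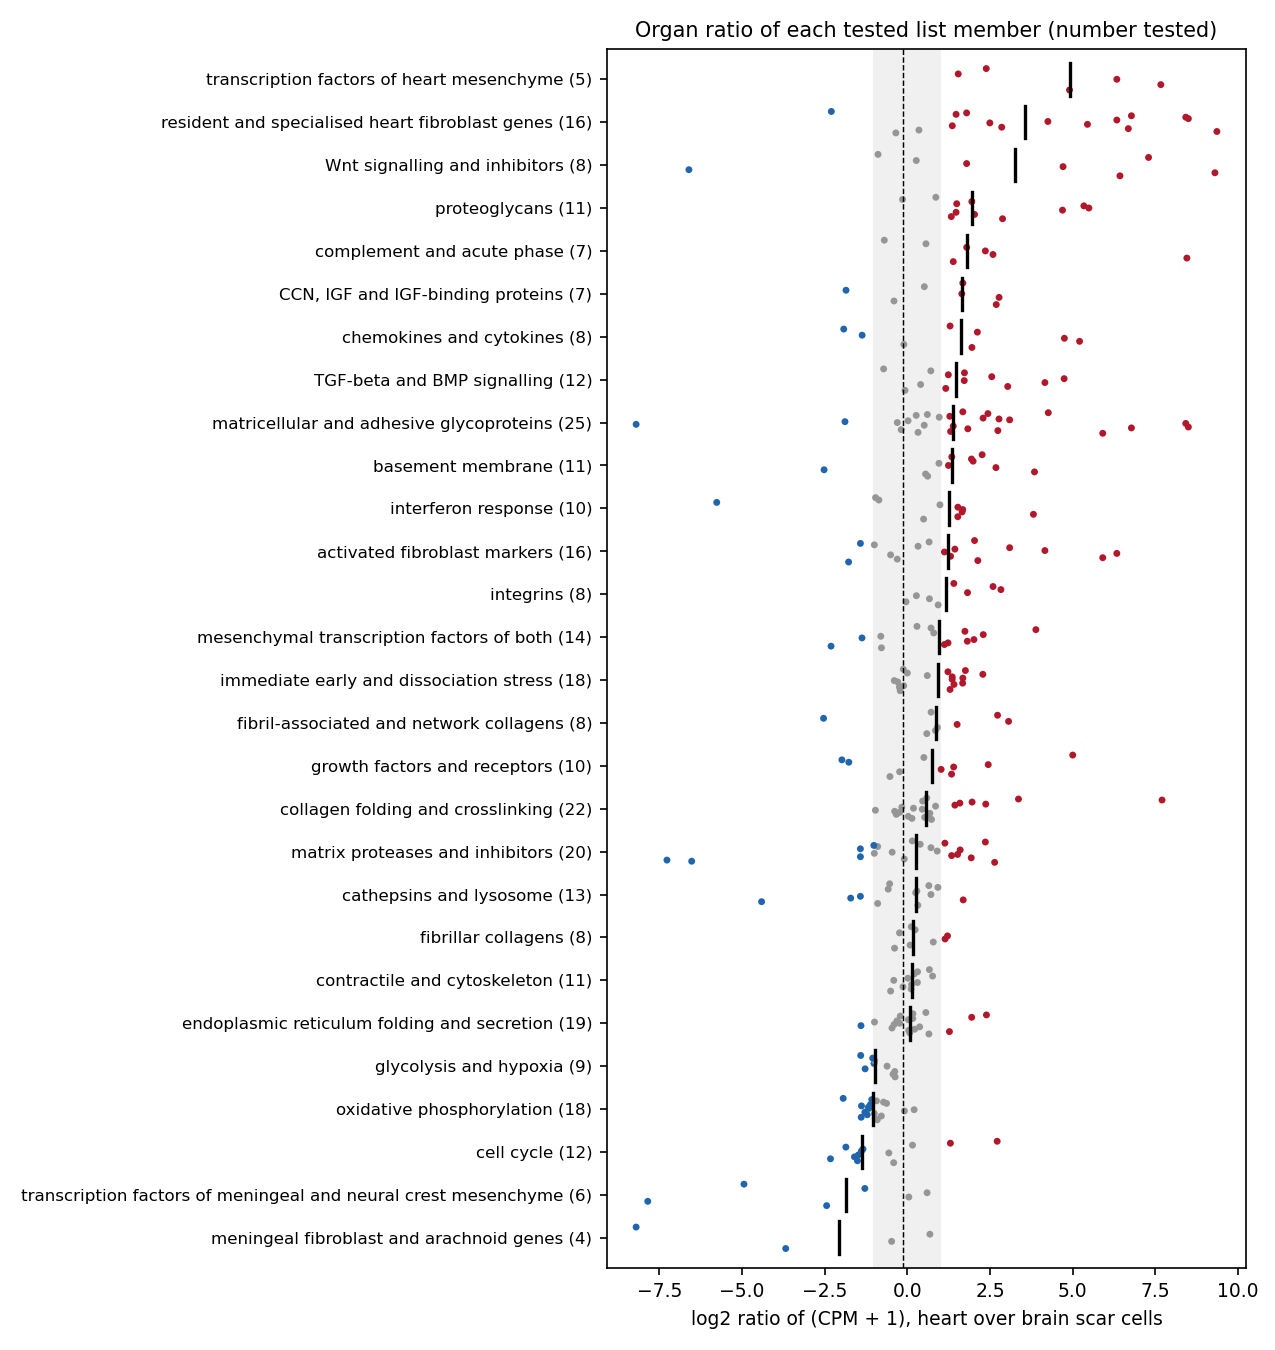
Each point is 1 tested gene of a list (its name and the number tested on the left), placed by the log2 ratio of CPM + 1 of heart over brain scar cells. Red points are at least 2-fold higher in heart, blue points in brain, black bars are list medians, the shaded band is under 2-fold and the dashed line is the median of all tested genes, -0.14. All 11 contractile genes lie in the shaded band.

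Of 12 tested genes of TGF-beta and BMP signalling, the pathway that drives myofibroblast matrix production, 8 were higher in heart (background 16.4%) and 0 in brain (12.8%), with a median of 1.48, but 5 of the 12 were tested only through heart. The ligand Tgfb3 stood at 201 CPM in heart and 23.6 CPM in brain. The latent TGF-beta binding proteins Ltbp2 and Ltbp4, which store the ligand in matrix, stood at 489 and 26.4 CPM and at 522 and 18.5 CPM. Smad7, a feedback inhibitor, stood at 140 and 23.0 CPM. Of 8 tested genes of Wnt signalling and its inhibitors, 5 were higher in heart (background 16.4%) and 1 in brain (12.8%). The same 6 genes had been tested only through those organs. Sfrp1, Sfrp2 and Frzb stood at 634, 630 and 177 CPM in heart and at 6.37, 0 and 5.81 CPM in brain, and Dkk3 at 148 and 42.1 CPM. Sfrp4 stood at 476 CPM in brain and 3.90 CPM in heart, and was found in 66.9% and 1.24% of thinned cells.

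Growth factor genes went both ways. Ctgf (connective tissue growth factor) stood at 1162 CPM in heart and 179 CPM in brain, Igf1 at 298 and 42.7 CPM and Gas6, a ligand of TAM receptors, at 331 and 9.37 CPM. Mdk (midkine), a heparin-binding growth factor, stood at 235 CPM in heart and 929 CPM in brain, Angptl4 at 80.6 and 277 CPM and Igfbp5 at 129 and 468 CPM. The receptor Pdgfrb was even, at 142 and 167 CPM. Pdgfra, a receptor of resident fibroblasts, stood at 132 and 51.7 CPM, but at 112 CPM in the brain cells with Y-linked UMIs, where its log2 ratio was 0.24.

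Of 8 tested chemokine and cytokine genes, 5 were higher in heart (background 16.4%), 4 of the 8 having been tested only through it, and 2 in brain (12.8%). The neutrophil chemokines Cxcl1 and Cxcl2 stood at 777 and 132 CPM in heart and at 20.04 and 3.93 CPM in brain. Heart leukocytes held more of both, at 1318 CPM of Cxcl1 and 4531 CPM of Cxcl2. A Cxcl1 UMI was found in 55.3% of thinned heart scar cells and 61.5% of heart leukocytes, and a Cxcl2 UMI in 17.1% and 78.0%. Since leukocytes express both chemokines, they give no background for them. The alarmin Il33 stood at 72.4 CPM in heart and 277 CPM in brain, with a UMI in 20.7% and 63.0% of thinned cells and in 1% and 0% of leukocytes. Cxcl12 stood at 137 and 356 CPM, but with Cdh5 allowed it fell below 2-fold. Of 7 tested complement and acute phase genes 5 were higher in heart (background 16.4%) and 0 in brain (12.8%), with a median of 1.79. Of the 7, 1 was tested only through heart and 1 only through brain. Besides C3, the C1 inhibitor Serping1 stood at 705 and 137 CPM. Of 10 tested interferon-response genes 5 were higher in heart (background 16.4%), led by Ifi27l2a at 782 and 54.7 CPM. In brain it was 1 (12.8%), Ifitm1 at 7.38 and 454 CPM, which was tested only through brain. Of the 10, 1 was tested only through heart.

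Of 11 tested contractile genes 0 were 2-fold apart in either direction (background 16.4% and 12.8%), with a median log2 ratio of 0.13. Acta2 (smooth muscle actin), the mark of myofibroblasts, stood at 748 CPM in heart and 1062 CPM in brain sums. Its spread over cells differed more than its sum. The per-cell median was 118 CPM in heart and 716 CPM in brain, and 51.2% (49.8% to 52.6%) and 79.2% (72.0% to 85.3%) of thinned cells had a UMI. The share in leukocytes was 17.0% and 2.83%. In thinned brain cells, Mmp3 stood at 311 CPM in the 122 cells with an Acta2 UMI and 1350 CPM in the 32 without, Dcn at 700 and 2169 CPM and Igfbp5 at 302 and 1463 CPM. In heart, Dcn stood at 5801 CPM in 2525 cells with Acta2 and 9149 CPM in 2407 without, and Pi16 at 484 and 1014 CPM. Cthrc1 went the other way, at 1552 against 956 CPM in brain and 1339 against 987 CPM in heart.

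**Figure D4:**
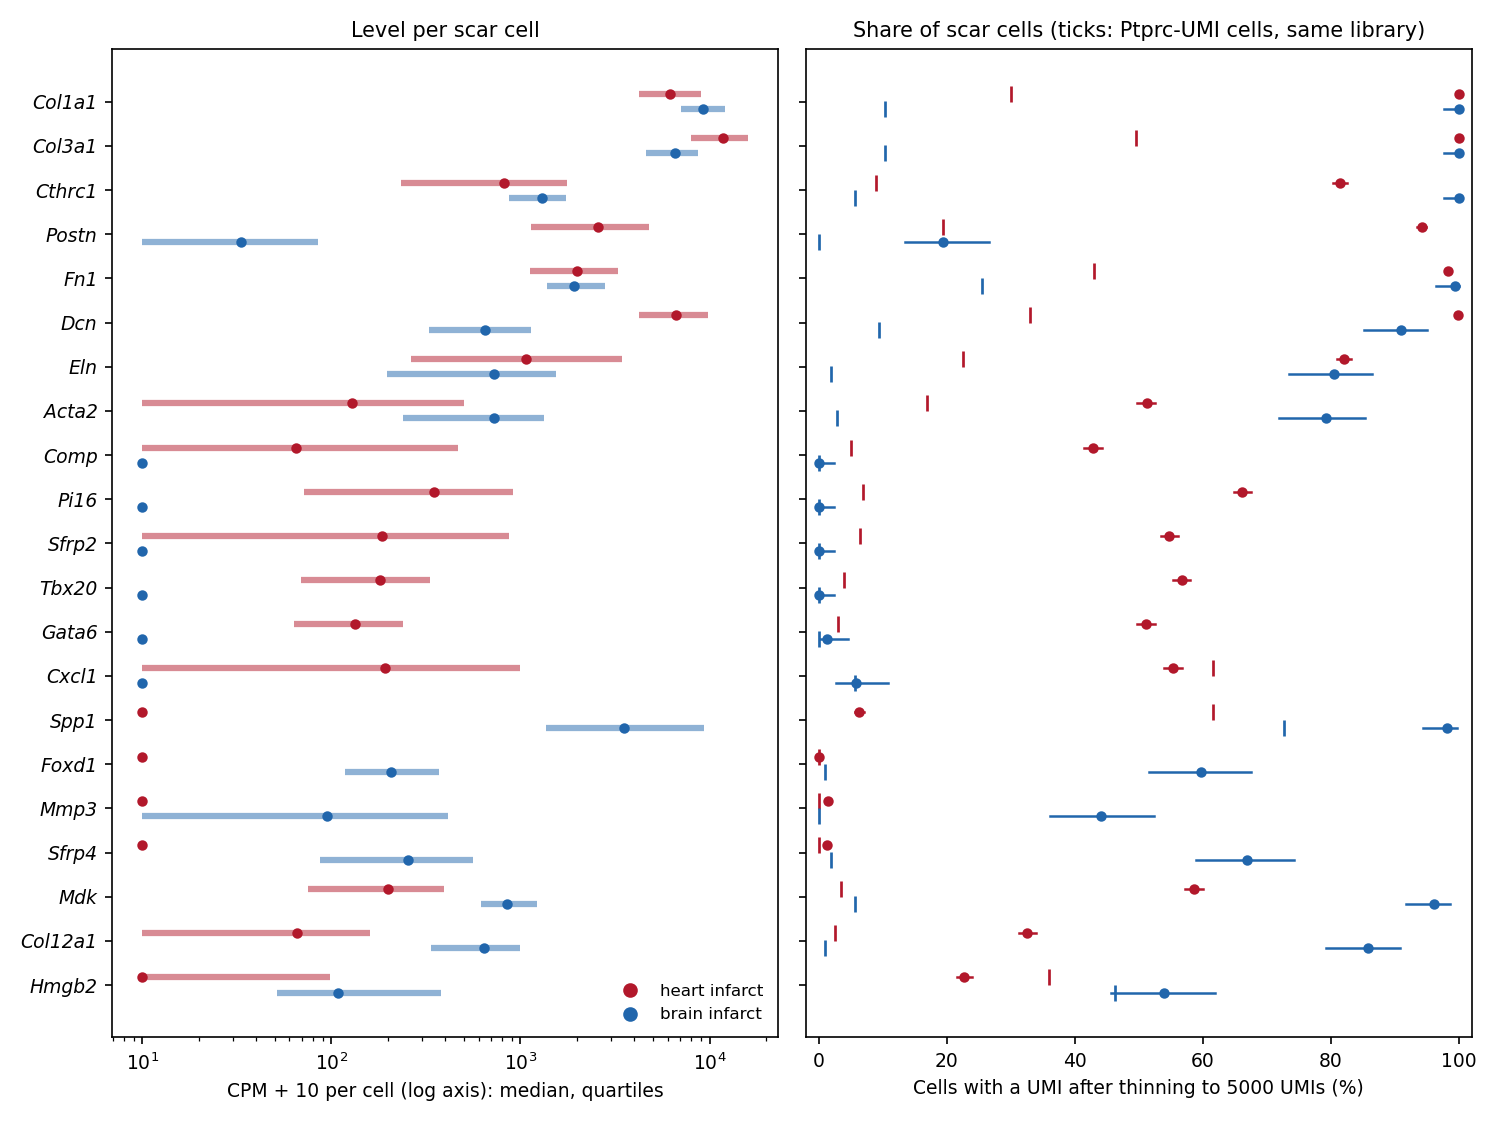
For 21 genes, the left panel shows the median (point) and quartiles (bar) of CPM + 10 over the 5074 heart (red) and 158 brain (blue) scar cells on a log axis, and the right panel the percent of cells with a UMI after thinning to 5000 UMIs, with exact 95% intervals. Vertical ticks give the share in Ptprc-UMI cells of the same library. Col1a1, Fn1 and Eln overlap between organs, while Postn and Spp1 lie far apart in opposite directions.

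Of 12 tested cell cycle genes, 7 were higher in brain (background 12.8%) and 2 in heart (near the background of 16.4%), with a median of -1.36. Of the 12, 6 were tested only through brain and 1 only through heart. Birc5 (survivin) stood at 35.3 CPM in heart and 181 CPM in brain, Hmgb2 at 97.0 and 354 CPM, Ube2c at 46.5 and 143 CPM and Cdk1 at 30.4 and 88.4 CPM. Mki67, under the 50 CPM minimum, stood at 40.4 and 44.8 CPM. After thinning, a UMI of Mki67 or Top2a was found in 7.26% of heart cells (6.55% to 8.02%) and 22.7% of brain cells (16.4% to 30.2%). Without cells that hold such a UMI, 4486 heart and 94 brain cells were left, and Cenpa, Cdk1, Ube2c and Hmgb2 fell below 2-fold, with log2 ratios of -0.49, -0.75, -0.36 and -0.63. Birc5 stayed at least 2-fold higher in brain. Because the cells were removed by cell cycle genes, a fall in such genes was partly built in. In heart, the cyclin-dependent kinase inhibitor Cdkn1a (p21) was higher, at 167 against 24.5 CPM.

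Of 9 tested genes of glycolysis and hypoxia 4 were higher in brain (background 12.8%) and 0 in heart (16.4%), with a median of -0.99, among them Ldha (lactate dehydrogenase A) at 344 CPM in heart and 917 CPM in brain and Gapdh at 648 and 1571 CPM. Of 18 tested nuclear genes of oxidative phosphorylation 9 were higher in brain (background 12.8%) and 0 in heart (16.4%), with a median of -1.04. Among the 9 were Cycs (cytochrome c) at 88.7 and 343 CPM, Ndufb8 at 154 and 406 CPM and Cox7c at 502 and 1314 CPM. The median depth per cell, 33773 UMIs in brain and 12674.5 in heart, moves with these differences, and its part in them was not tested. Of 19 tested genes of endoplasmic reticulum folding 15 lay within 2-fold, near the 70.8% of all tested genes, and 2 were tested only through heart. Of 18 tested immediate early and dissociation genes 9 were higher in heart (background 16.4%) and 0 in brain (12.8%), with a median of 0.92. Atf3 stood at 173 and 53.6 CPM and Klf4 at 444 and 90.5 CPM, while Fos was even. The organs were dissociated differently, and the part of this in these genes cannot be told apart from the organ.

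The other libraries of each organ show which of these differences were also present outside the infarct. The rule itself found 49 cells in heart sham, 1345 in heart peri-infarct, 2 in brain sham and 3 in brain peri-infarct, too few in brain for a sum. A wider group was therefore formed after the data were seen, with collagens at least 0.3% of UMIs, none of the excluded genes and no need for Cthrc1 or Postn. It held 4584, 6065 and 4337 cells in heart sham, infarct and peri-infarct and 93, 204 and 74 in brain. The brain cells summed to 541758, 5817642 and 512735 UMIs in the same order. Zeros and low values in brain sham and peri-infarct therefore rest on few UMIs. Between the peri-infarct libraries 391 of 3293 genes (11.9%) were at least 2-fold higher in heart and 512 (15.5%) in brain. Between the sham libraries it was 352 of 3487 (10.1%) and 668 (19.2%). Sex differed fully between the sham libraries. Of cells that passed the quality filters, 8988 in heart sham had a Xist UMI and no Y-linked UMI and 0 the reverse. In brain sham these were 2 and 1677 cells, so organ and sex cannot be told apart there. Of the 466 genes high in heart scar cells, 436 were tested in peri-infarct and 217 of them were called the same way (49.8%), and 11 the opposite way. In sham it was 141 of 417 (33.8%), and 23 the opposite way. Among the 23, Ctgf stood at 311 CPM in heart sham and 1558 CPM in brain sham, and Col8a2 at 12.2 and 109 CPM. Of the 363 brain genes, 103 of 292 (35.3%) were called the same way in peri-infarct and 70 of 262 (26.7%) in sham.

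Some factors stood on the same side in all 3 pairs of libraries and others did not. Tbx20 was at 184, 192 and 292 CPM in the heart sham, infarct and peri-infarct groups and at 0 in every brain group. The zeros of brain sham and peri-infarct come from small sums. Foxd1 was at 539, 266 and 497 CPM in brain and at 3.15, 0.11 and 1.32 CPM in heart. Msx1 stood at 242, 235 and 232 CPM in brain, and Col12a1 at 927, 664 and 677 CPM. Sfrp4 stood at 148, 454 and 474 CPM there. Foxp2 changed sides, with a log2 ratio of heart over brain of 0.60 in infarct scar cells, -0.73 in sham and -0.98 in peri-infarct, the latter pair over the wider group. The ratio of Foxp1 was 0.04, -2.15 and -1.72 in the same order.

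Another set was high in the brain infarct library and low in the other brain libraries. Spp1 stood at 42.5 CPM in brain sham, 11270 CPM in infarct and 189 CPM in peri-infarct. Mmp3 stood at 0, 491 and 0 CPM, Mmp13 at 0, 155 and 0 CPM, Ctsc at 20.3, 332 and 17.6 CPM and Bpgm (bisphosphoglycerate mutase) at 36.9, 243 and 33.2 CPM. The sums of brain sham and peri-infarct are small, so a 0 there still allows a low level. Acta2 stood at 14.8, 1028 and 31.2 CPM. Fabp5, a fatty acid carrier outside the naming rule that was chosen after its values were seen, stood at 9.23, 1792 and 29.3 CPM. Pdgfra ran the opposite way and was lowest in the infarct, at 618, 62.2 and 386 CPM. In heart, Postn stood at 255 CPM in sham, 2885 CPM in infarct and 2023 CPM in peri-infarct, and Cthrc1 at 7.07, 1036 and 342 CPM. In brain Postn stood at 142, 50.5 and 70.2 CPM, and was lowest in the infarct. Cells of the wider group had a median of 1433.5 UMIs in heart sham and 12275 in heart infarct, and of 4501 and 29419 UMIs in brain sham and infarct. Sex differed as well between the brain libraries. Cells with Xist alone and with Y-linked UMIs alone numbered 2 and 1677 in sham, 1198 and 590 in infarct and 1104 and 492 in peri-infarct, among all that passed the quality filters. The parts of depth and sex in these differences were not tested.

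**Figure D5:**
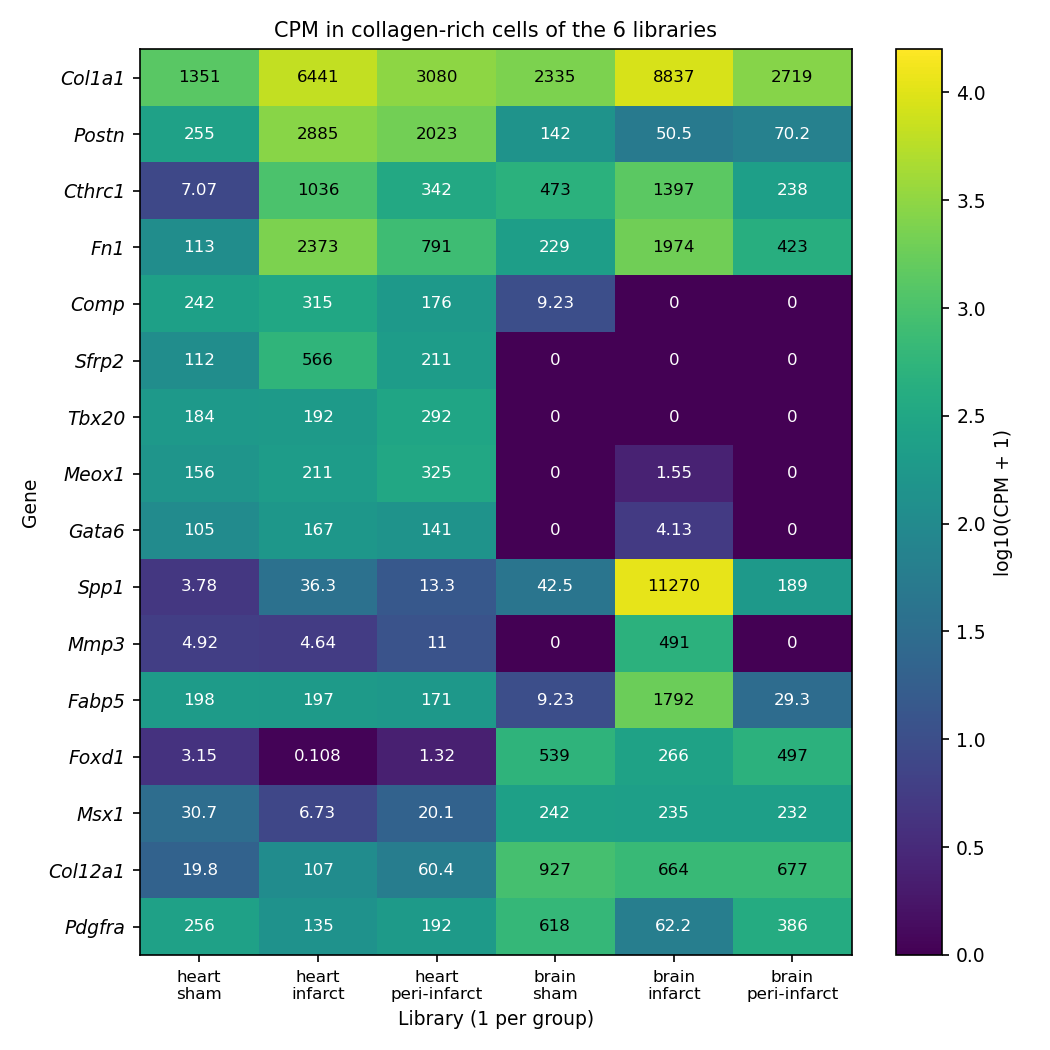
Rows are 16 genes and columns the 6 libraries, with the CPM of each gene in the summed collagen-rich cells printed in the cell and colour giving log10(CPM + 1). Tbx20, Meox1 and Gata6 are high in the 3 heart libraries, Foxd1, Msx1 and Col12a1 in the 3 brain libraries, and Spp1, Mmp3 and Fabp5 are high among brain libraries in the infarct.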

How the data were processed

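The authors deposited raw UMI counts per gene and barcode, made with Cell Ranger 3.0.2 per the file headers. The build mm10 and a further tool, Seurat 3, come from the submitters' processing notes. The 6 libraries list 31053 genes and 44766 barcodes. Counts were read with Python 3.11.15 and scipy 1.17.1, summed over scar cells and scaled to CPM. Genes averaging 50 CPM or more over both organs were tested and called at a 2-fold ratio of (CPM + 1). This was checked on simulated data. Shares carry Clopper-Pearson and sums Poisson intervals.

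Members and the 28 gene lists were chosen with earlier results of these data known. Named genes are the 12 highest and 12 lowest ratios, up to 12 shared abundant and 12 shared enriched genes, and 15 always named. To these were added up to 6 members per list, those tested with the largest absolute ratio. Ribosomal, mitochondrial and predicted genes were left out of the ranking. Doublets were kept: Scrublet (scanpy 1.11.5) marked 175 heart and 8 brain cells by its own threshold, and the expected share of 717 and 45 was removed in an alternative. Alternatives covered filters, thresholds, thinning and scaling with edgeR 4.0.16. Gene positions are from GENCODE vM21. A result on a single gene is not reported here.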

Additional observations from a re-analysis of the deposited data

Results flagged for a closer look

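The heart peri-infarct library, which the organ comparison does not use, also held cells that meet the rule for scar cells. They were 1345 cells, or 16.9% of the 7956 cells that passed the quality filters (16.1% to 17.7%), above the 0.360% of heart sham (0.266% to 0.475%). In these cells Postn stood at 3684 CPM, Cthrc1 at 811 CPM and Pi16 at 1216 CPM.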

How the results depend on the processing

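The counts of genes were computed under 20 alternative settings and 6 more added after the data were seen. With a minimum of 10 CPM, 1477 genes were at least 2-fold higher in heart and 785 in brain. With 200 CPM the counts were 108 and 138, and with no CPM filter 2666 and 1305, since the filter sets how many genes are tested. Under every other alternative both counts stayed within 1.5 times the reported ones. Genes enriched 4-fold in scar cells of both organs, 0 as reported, numbered 3 over cells with collagens under 1%, 1 with no exclusion, 1 with Cdh5 allowed and 2 with cells thinned to 2000 UMIs. The cause was not tested. TMM factors gave no enrichment value. All 139 named genes that were at least 2-fold apart kept their direction under all 26 alternatives, and 121 stayed at least 2-fold apart. Many of these genes were named for their large ratios, and the alternatives largely share cells. Alternatives of the CPM minimum and of the enrichment cannot change a gene's ratio at all. This stability is thus no independent check. No paired analysis was possible because each group holds 1 library. The 158 brain cells limit what shares can show.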
